A study of Mus musculus with 302 samples.

Results

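Livers at the late end of the clock were compared with livers at the early end among 302 F2 mice of a cross between C57BL/6J and C3H/HeJ, bred in both directions. The mice were chosen by the measured values of 2 genes through an index, Dbp minus Arntl, each centred within 4 blocks of mice and expressed in SD units (z-scores). The 75 mice with the highest index are called late and the 75 with the lowest early, and the other 152 mice belong to neither group. The labels give no time of day for any mouse, so late and early name only the 2 ends of this index. Mice of both groups alike were raised on chow (4% fat), moved at 8 weeks of age to a Western diet (42% fat, 0.15% cholesterol) for 12 weeks, and killed at 20 weeks after fasting for 12 hours. Each array set the liver RNA of 1 mouse, in Cy3, against a pool of equal portions of RNA from every mouse, in Cy5. The labels give neither the sex nor the genotype of a mouse, and every F2 mouse carries its own mixture of the parental genomes. The blocks were the mice with a low or a high ratio of the Y-linked gene Eif2s3y (split at -0.8), each divided into mouse numbers 51 to 212 and 213 to 362. Values below are log10 of mouse over pool, a reading that is likely but not stated in the sources used here. The medians of Eif2s3y were -1.73 in 142 mice and 0.195 in 160 mice. With the sign turned, those 142 mice would lie 53.8-fold above the pool, where a pool of equal shares allows at most 2.13-fold.

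The liver clock is a loop of transcription factors. ARNTL (BMAL1) pairs with CLOCK or NPAS2 and, at E-box sequences, switches on the Per and Cry genes, the nuclear receptors Nr1d1 and Nr1d2 and the output factor Dbp. PER and CRY proteins then block the ARNTL pair, while NR1D and ROR receptors compete at ROR elements, where NR1D proteins repress and ROR proteins activate Arntl and Nfil3. In mouse liver Nr1d1 and Dbp peak in the light phase, the Per genes follow around dusk, and Cry1, Nfil3, Npas2 and Arntl peak later in the dark phase. DBP, TEF and HLF, the PAR bZip factors, bind D-boxes in genes of metabolism, and NFIL3 represses at the same sites.

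The promoters of 4 clock genes are shown because they carry these elements within the window of 250 bases before to 50 after the start, in RefSeq's GRCm38.p6 sequence, and because their genes stood on both sides of the comparison. Capitals mark the ROR element TAGGTCA, read on either strand, in Arntl (chr7:113207261-113207560, plus strand) and Nfil3 (chr13:52980990-52981289, minus strand). In Cry1 (chr10:85185005-85185304, minus strand) and Per1 (chr11:69098699-69098998, plus strand) they mark the E-box CACGTG.
Arntl: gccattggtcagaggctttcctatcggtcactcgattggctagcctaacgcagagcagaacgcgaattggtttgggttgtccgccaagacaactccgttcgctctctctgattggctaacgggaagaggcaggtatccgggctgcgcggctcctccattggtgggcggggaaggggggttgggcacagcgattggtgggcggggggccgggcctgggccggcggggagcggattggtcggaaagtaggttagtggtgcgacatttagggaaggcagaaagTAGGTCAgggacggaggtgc
Nfil3: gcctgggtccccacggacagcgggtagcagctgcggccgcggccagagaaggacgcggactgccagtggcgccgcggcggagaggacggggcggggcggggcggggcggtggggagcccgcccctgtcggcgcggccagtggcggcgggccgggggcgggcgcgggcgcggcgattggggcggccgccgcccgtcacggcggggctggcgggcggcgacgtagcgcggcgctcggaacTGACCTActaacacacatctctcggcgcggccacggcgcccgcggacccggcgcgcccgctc
Cry1: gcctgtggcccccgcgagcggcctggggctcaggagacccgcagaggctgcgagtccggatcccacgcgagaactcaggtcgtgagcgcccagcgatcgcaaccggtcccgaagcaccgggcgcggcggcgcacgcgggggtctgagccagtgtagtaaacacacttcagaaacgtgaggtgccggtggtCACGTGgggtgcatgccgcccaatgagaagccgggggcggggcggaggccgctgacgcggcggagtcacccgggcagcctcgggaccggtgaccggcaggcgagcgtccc
Per1: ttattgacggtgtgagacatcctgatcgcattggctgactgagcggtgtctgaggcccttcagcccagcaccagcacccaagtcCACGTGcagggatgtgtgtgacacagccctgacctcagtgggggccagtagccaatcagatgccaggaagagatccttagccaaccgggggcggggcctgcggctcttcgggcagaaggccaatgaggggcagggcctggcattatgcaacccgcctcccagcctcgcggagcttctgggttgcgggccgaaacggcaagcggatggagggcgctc
Of 41 clock genes looked up, the rule's genes included, 33 had at least 1 such window, and the table held 2 windows each for Arntl and Per1, of which the one with the match is printed. An E-box stood in windows of 5 genes (Per1, Cry1, Bhlhe41, Tef and Nr1i3), a ROR element in 2 (Arntl and Nfil3) and a D-box, TTANGTAA, in 2 (Per3 and Rorb), counting matches on both strands. Each printed window holds 1 match. Over all 32851 promoter windows the shares with a match were 7.15% for the E-box, 2.61% for the ROR element and 2.32% for the D-box. These shares are per window and the clock counts per gene, and some genes have several windows, so they are not on the same scale. The window of Dbp held none of these letters.

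Dbp and Arntl chose the groups, so their values are given without a test. Dbp, 1 probe, ran from -0.0236 to 0.195 with a median of 0.0726 in late livers, and from -0.202 to 0.0382 with a median of -0.0796 in early livers, and was 1.42-fold higher in late livers. Arntl, also 1 probe, had a lowest, median and highest value of -0.531, -0.267 and 0.0270 in late livers, against -0.0725, 0.214 and 0.542 in early livers, and was 3.13-fold lower in late livers. The raw ranges overlap for both genes, and the index used both together after centring by block. Across all 302 mice, centred by block, Dbp and Arntl ran against each other with a Pearson r of -0.643 and a Spearman rho of -0.652, and r within the blocks lay between -0.715 and -0.502. The last mouse counted as late had an index of 1.373 and the next one 1.344, and the last early mouse -1.246 and the next one -1.239, so neither edge falls in a gap. Index values reached 4.89 and -4.43, and the groups' means were 2.34 and -2.31.

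**Figure D1:**
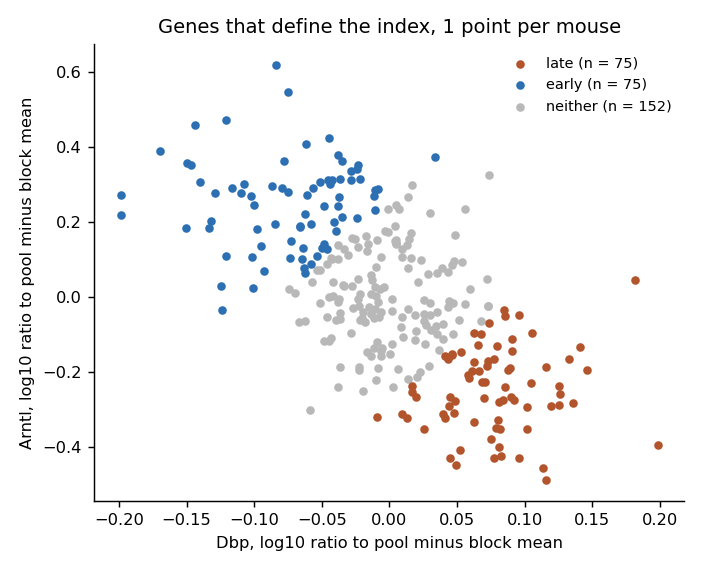
Block-centred log10 ratio of Arntl (vertical) against that of Dbp (horizontal), 1 point per mouse, for 75 late, 75 early and 152 other livers. The points form 1 continuous band with no gap between the groups, and the 2 genes ran against each other with an r of -0.643.

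Both groups drew on every block, with 25 late and 23 early, 25 and 27, 9 and 9, and 16 and 16 mice in the low-number blocks with low and high Eif2s3y and the high-number blocks with low and high Eif2s3y. Of the 159 mice numbered to 212, 62.9% fell in one of the groups, against 35.0% of the 143 mice with higher numbers, and the SD of the index was 2.13 in the lower range and 1.38 in the higher. The SD over an array's probes, a measure of array spread, had a median of 0.0989 in late and 0.0970 in early livers, and 6 arrays of unusually wide spread included 1 late and 1 early liver. Some arrays ran against each other over all probes (lowest correlation -0.510, with 889 of 45451 pairs under -0.3), but all share 1 dye orientation, and the direction was kept.

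Between late and early livers 5429 of 21705 features (25.0%) passed an adjusted p of 0.05 in limma with the block in the fit, 3299 higher (15.2%) and 2130 lower (9.81%) in late livers. Features are 10813 named genes and 10892 unnamed probes, without Dbp and Arntl, and 2764 of the named genes (25.6%) were called. Most differences were small. Those past 1.25-fold numbered 258 (1.19%), of which 90 (0.415%) were higher and 168 (0.774%) lower in late livers, and the median difference over all features was 0.00279. Of the called features 81.4% had the same direction in each of the 4 blocks, against 33.3% of all features. The calls came from a fit on these same mice, which favours a shared direction, so the higher share is a description. Fitted alone, the blocks of low numbers with low and high Eif2s3y called 1.86% and 4.61% of features, and those of high numbers 2.52% and 1.15%. The labels name each mouse as its own sample, so the tests weigh differences between animals. The fit takes mice within a block as independent, yet the index of mice with consecutive numbers ran together (Pearson r 0.448). The effect of such runs on the p-values and on the number of calls was not tested. All values come from whole liver, where fewer cells of a type and less RNA per cell cannot be told apart.

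The 6 lists of clock genes held 39 measured genes besides Dbp and Arntl, of which 19 were higher, 10 lower and 10 not called, a share of 74.4% called beside the 25.0% of all features. Their median difference was 0.0309 against 0.00279 over all features. Within the core loop and the PAR bZip factors 12 of 15 measured genes were called, 8 higher and 4 lower. The Per genes, Nr1d2, Bhlhe40, Bhlhe41, Tef and Hlf were higher in late livers, and Cry1, Nfil3, Rora and Npas2 were lower. Clock, Rorb and Nr1d1 were not called. The choice of Dbp and Arntl as the ends of the index draws on the same loop and the same arrays, so these directions are a description of livers picked for 2 of its genes. The 6 lists were also set with earlier results of these data known, so the shares called in them, here and below, are a description too.

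Per2, a repressor of the ARNTL pair, showed the largest difference in the core loop apart from Arntl. Its log10 ratio ran from -0.354 to 0.295 with a median of 0.106 in late livers, and from -0.552 to 0.177 with a median of -0.136 in early livers. The groups overlapped at their edges, and after centring by block 72 of 75 late livers lay above the early median. Per2 was 1.79-fold higher in late livers (difference 0.252 ± 0.0226, SE, adjusted p 3.28e-18). Per1 ran from -0.0955 to 0.157 with a median of 0.036 in late livers, and from -0.193 to 0.148 with a median of -0.0172 in early livers, a difference of 0.0477 ± 0.00915 (adjusted p 3.28e-05). Per3 had a lowest, median and highest log10 ratio of -0.0525, 0.0302 and 0.107 in late livers, against -0.141, -0.00657 and 0.0686 in early livers, and was 1.08-fold higher in late livers (adjusted p 6.83e-08). Both groups overlap broadly for Per1 and Per3, with 62 and 63 of 75 late livers above the early median.

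Nr1d2 and Nr1d1, the paired receptors that repress at ROR elements, parted. Nr1d2 had a lowest, median and highest log10 ratio of -0.0409, 0.0532 and 0.144 in late livers, against -0.328, -0.0421 and 0.0938 in early livers, and 73 of 75 late livers lay above the early median after centring. It was 1.26-fold higher in late livers (adjusted p 2.01e-19), and its 2 probes gave differences of 0.163 and 0.0354, the same direction in unlike sizes. Nr1d1 ran from -0.584 to 0.384 with a median of -0.0828 in late livers, and from -0.646 to 0.276 with a median of -0.0807 in early livers, and the groups covered nearly the same range. The difference for Nr1d1 was -0.0183 ± 0.0295 (adjusted p 0.693). When the mice were ranked by Dbp alone, Nr1d1 was higher in the upper 75 by 0.1003 (adjusted p 0.00216), and when they were ranked by low Arntl alone the difference was -0.0892 (adjusted p 0.0340). Nr1d1 thus went in opposite directions under the separate genes of the index.

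Bhlhe40 and Bhlhe41 (DEC1 and DEC2), which repress at E-boxes, were both higher in late livers. Bhlhe40 ran from -0.316 to 0.482 with a median of -0.00564 in late livers, and from -0.55 to 0.322 with a median of -0.0548 in early livers, a difference of 0.0862 ± 0.0245 (adjusted p 0.00538). In the block of high numbers and low Eif2s3y alone its direction turned, to -0.0808, which limma did not call there (adjusted p 0.593). Nor was any other turn in a single block, named here or below, called in that block. Bhlhe41 had medians of -0.00479 in late and -0.0176 in early livers, a difference of 0.0309 ± 0.00937 (adjusted p 0.00945), with 48 of 75 late livers above the early median.

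Cry1, the repressor that peaks last, was lower in late livers, and its promoter window carries the same E-box as that of Per1. Cry1 had a lowest, median and highest log10 ratio of -0.175, -0.0259 and 0.179 in late livers, against -0.134, 0.0663 and 0.386 in early livers. After centring 66 of 75 late livers lay below the early median, and Cry1 was 1.24-fold lower (difference -0.0949 ± 0.0139, adjusted p 3.99e-08). Nfil3, the D-box repressor whose promoter shares the ROR element with Arntl, ran from -0.27 to 0.435 with a median of -0.0634 in late livers, and from -0.158 to 0.439 with a median of 0.116 in early livers. Most late livers, 67 of 75, lay below the early median, yet the highest values of the groups were nearly equal. Nfil3 was 1.42-fold lower in late livers (difference -0.152 ± 0.022, adjusted p 2.54e-08).

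Rora, which encodes the activator that competes with NR1D at ROR elements, was also lower. It ran from -0.267 to 0.187 with a median of -0.0229 in late livers, and from -0.19 to 0.293 with a median of 0.0528 in early livers, a difference of -0.0844 ± 0.0153 (adjusted p 1.01e-05). Rorb, its relative, had a difference of 0.0132 ± 0.00561 (adjusted p 0.0709), which missed the threshold. Among the partners of ARNTL, Npas2 had medians of 0.00324 in late and 0.0179 in early livers, a difference of -0.0132 ± 0.00504 close to the threshold (adjusted p 0.0409). Npas2 turned to 0.0116 in the block of high numbers and high Eif2s3y alone. Clock had a difference of -0.00103 ± 0.00541 (adjusted p 0.912), with medians near 0 in both groups. Among the PAR bZip factors, which are relatives of Dbp, Tef had a lowest, median and highest log10 ratio of -0.103, 0.026 and 0.105 in late livers, against -0.0544, -0.0144 and 0.0545 in early livers. Nearly every late liver, 71 of 75, lay above the early median for Tef, although the difference was small (0.0374 ± 0.00421, adjusted p 1.05e-12). Hlf was 1.12-fold higher (adjusted p 0.00897), and it went the other way, at -0.0297 and -0.0192, in the blocks of high numbers with low and high Eif2s3y.

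**Figure D2:**
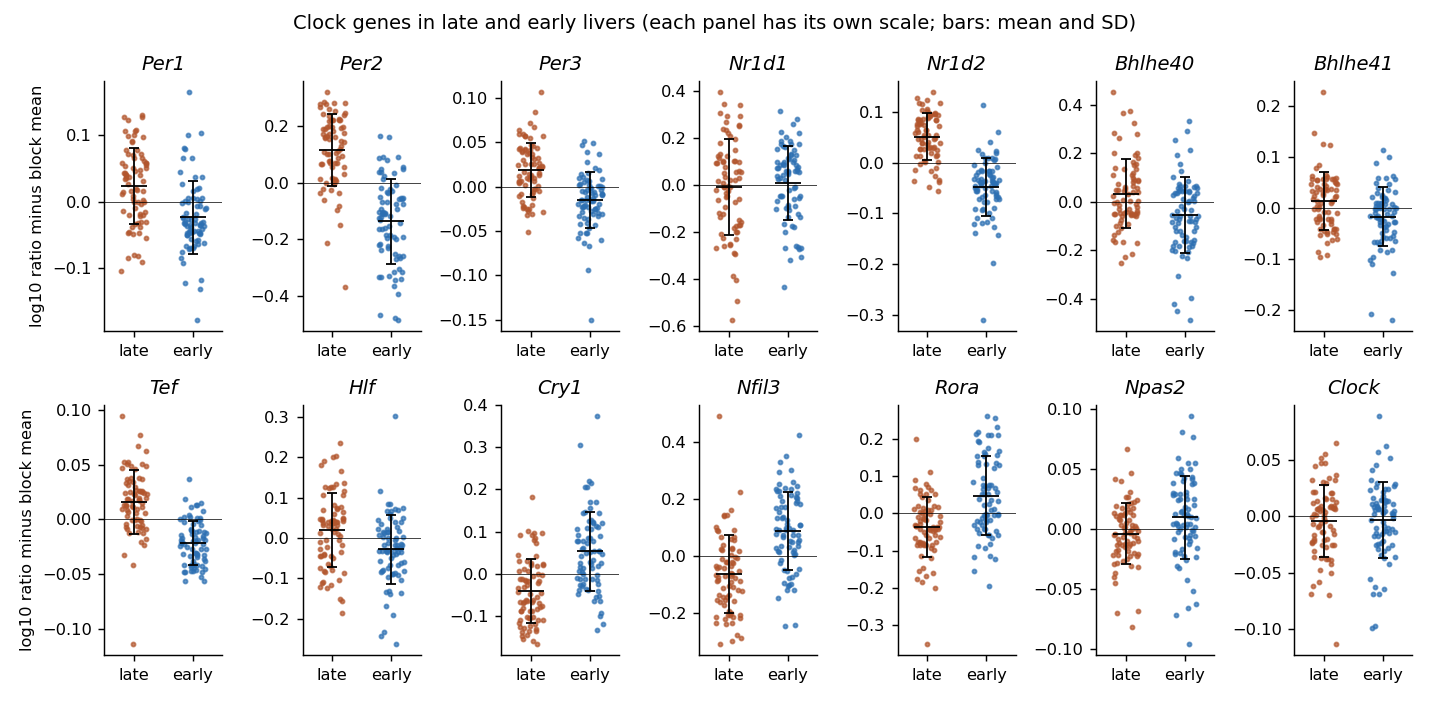
Block-centred log10 ratios of 14 core clock and PAR bZip genes in 75 late (left) and 75 early (right) livers, 1 point per mouse, with bars for the mean and SD and a separate vertical scale in each panel. Per2, Nr1d2 and Tef sit higher in late livers and Cry1, Nfil3 and Rora lower, with overlap in every panel, while the groups cover nearly the same range for Nr1d1 and Clock.

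Of 7 measured genes for kinases and ubiquitin enzymes that act on PER and CRY proteins, 1 was higher and 3 were lower in late livers. The share called was 57.1%, beside 25.0% of all features (15.2% higher and 9.81% lower). The higher one was Usp2, a deubiquitinase with a strong daily rhythm in liver. Usp2 ran from -0.334 to 0.384 with a median of 0.0949 in late livers, and from -0.538 to 0.25 with a median of -0.166 in early livers, and 70 of 75 late livers lay above the early median. It was 1.74-fold higher (difference 0.241 ± 0.0291, adjusted p 2.78e-11). The casein kinase genes Csnk1d and Csnk1a1 and the F-box gene Fbxw11 were lower by small amounts, with differences of -0.041, -0.0503 and -0.0312. In the block of low numbers and low Eif2s3y alone Csnk1d stood at 0.000914. Csnk1e, Btrc and Gsk3b were not called, with differences of -0.0221 ± 0.0182, -0.000359 ± 0.00434 and 0.0108 ± 0.0139.

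Among 17 measured clock-controlled genes of liver 10 were higher and 3 lower in late livers (76.5% called, beside 25.0% of all features). Rgs16, a brake on G protein signalling, had the largest positive difference of any called named gene. It ran from -1.13 to 0.723 with a median of -0.116 in late livers, and from -1.14 to 0.448 with a median of -0.404 in early livers. The ranges overlap almost fully, though 62 of 75 late livers lay above the early median after centring, and Rgs16 was 2.02-fold higher (difference 0.306 ± 0.0507, adjusted p 1.3e-06). Wee1, a kinase that holds back entry into mitosis and a direct target of the ARNTL pair, had a lowest, median and highest log10 ratio of -0.0433, 0.0487 and 0.215 in late livers, against -0.146, -0.0403 and 0.0793 in early livers. With 74 of 75 late livers above the early median Wee1 had the highest such count of the clock lists, and it was 1.26-fold higher (adjusted p 3.19e-21).

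Other outputs with higher values belong to metabolism. Alas1, the first enzyme of haem synthesis, ran from -0.397 to 0.395 with a median of 0.0814 in late livers, and from -0.452 to 0.256 with a median of -0.103 in early livers, and was 1.52-fold higher (adjusted p 2.39e-08). Gys2, liver glycogen synthase, had a lowest, median and highest log10 ratio of -0.422, 0.0851 and 0.368 in late livers, against -0.218, -0.0601 and 0.182 in early livers, with 69 of 75 late livers above the early median (1.31-fold higher, adjusted p 1.08e-12). Nampt, which makes the NAD precursor nicotinamide mononucleotide, was 1.33-fold higher (adjusted p 6.18e-05). For Upp2, a uridine phosphorylase, the averaged value was 1.35-fold higher, but its 2 probes gave differences of 0.257 and 0.00154. Nr1i3 (CAR, a receptor for drugs), Pnpla3 (a lipid droplet protein), Stbd1 (a glycogen-binding protein) and Slc2a2 (the glucose transporter GLUT2) had differences of 0.0943, 0.0951, 0.0652 and 0.0556. Of these 4, Nr1i3 turned to -0.00566 and Slc2a2 to -0.0320 in 1 high-number block each.

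The 3 lower outputs were Cdkn1a, Insig2 and Elovl3. Cdkn1a (p21, a cell cycle inhibitor whose gene is repressed by NR1D1) ran from -1 to 0.332 with a median of -0.334 in late livers, and from -0.627 to 0.563 with a median of 0.17 in early livers. Its range was wide in both groups, and 72 of 75 late livers lay below the early median. Cdkn1a was 2.84-fold lower, the largest fold of any called named gene (difference -0.453 ± 0.0472, adjusted p 2.44e-14). Insig2, which holds the sterol sensor SCAP in the endoplasmic reticulum, had a lowest, median and highest log10 ratio of -0.418, -0.108 and 0.171 in late livers, against -0.264, 0.112 and 0.43 in early livers. It was 1.74-fold lower, with 72 of 75 late livers below the early median (adjusted p 5.29e-18). Elovl3, an enzyme that lengthens fatty acids, had a difference of -0.14 ± 0.0386 (adjusted p 0.00414) and mean ratios of -0.341 in late and -0.175 in early livers. With the blocks left out of both the index and the fit, which puts other mice in the groups, its difference was 0.0613. Its raw values ran from -1.23 to 0.627 with a median of -0.201 in late livers, and from -1.23 to 0.926 with a median of -0.03 in early livers. Noct, Lpin1, Tfrc and Cyp2a5 were not called, with differences of 0.0381 ± 0.0525, -0.0377 ± 0.0588, 0.0121 ± 0.00758 and 0.00992 ± 0.00441.

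Outside the lists the most negative difference with 1 direction in all 4 blocks was in Chka, choline kinase alpha, which starts the making of phosphatidylcholine from choline. Chka ran from -0.764 to 0.333 with a median of -0.268 in late livers, and from -0.177 to 0.632 with a median of 0.128 in early livers. All but 1 of the 75 late livers lay below the early median after centring, and Chka was 2.56-fold lower (difference -0.409 ± 0.0261, adjusted p 8.51e-29). Clpx, the unfoldase of the mitochondrial ClpXP protease, had a lowest, median and highest log10 ratio of -0.421, -0.15 and 0.183 in late livers, against -0.127, 0.137 and 0.468 in early livers. Its 2 probes gave -0.295 and -0.279, 73 of 75 late livers lay below the early median, and Clpx was 1.94-fold lower (adjusted p 1.71e-24).

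Chka and Clpx were the first of 15 genes named for the most negative differences outside the lists, chosen among those with 1 direction in all 4 blocks. Of the others, Pdgfc, a platelet-derived growth factor, ran from -0.371 to 0.0535 with a median of -0.133 in late livers, and from -0.145 to 0.486 with a median of 0.0721 in early livers, and was 1.67-fold lower (adjusted p 2.57e-20). Slc16a1 (MCT1, a carrier of lactate and ketone bodies) had a lowest, median and highest log10 ratio of -0.499, -0.116 and 0.182 in late livers, against -0.227, 0.084 and 0.334 in early livers, and was 1.59-fold lower (adjusted p 8.84e-19). These ranges overlap, with 74 and 71 of 75 late livers below the early median. Tubb2a, a beta tubulin, was 1.76-fold lower, and its 3 probes gave -0.238, -0.253 and -0.250. Slc16a6 of the same carrier family, the phosphate carrier Slc34a2, the neuronal surface protein gene Lrfn3 and Ddc (which makes dopamine and serotonin from their precursors) had differences of -0.204, -0.192, -0.19 and -0.187. The small heat shock protein gene Hspb1 and Mtmr11 stood at -0.189 and -0.194.

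The remaining 4 of these genes varied widely in both groups. Corin, known as the protease that activates natriuretic peptide in heart, had a lowest, median and highest log10 ratio of -1.4, -0.0903 and 0.297 in late livers, against -1.31, 0.0996 and 0.425 in early livers. Its adjusted p was 0.00967 at a difference of -0.249 ± 0.0759. Inhbb (the activin beta B subunit), Ly6d and Mmp12 (macrophage elastase) had differences of -0.194 ± 0.0582, -0.184 ± 0.0516 and -0.176 ± 0.0669, and Mmp12 stood at 0.0112 when mice were ranked by Arntl alone.

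The 15 most positive differences outside the lists, again with 1 direction in all 4 blocks, ran from 0.128 to 0.227. Cnmd, known as chondromodulin of cartilage, ran from -0.422 to 0.491 with a median of 0.0848 in late livers, and from -0.634 to 0.436 with a median of -0.156 in early livers, and was 1.69-fold higher (adjusted p 4.75e-08). Nmrk1, a kinase that feeds nicotinamide riboside into NAD, had a lowest, median and highest log10 ratio of -0.274, 0.0984 and 0.374 in late livers, against -0.35, -0.097 and 0.186 in early livers. Nmrk1 was 1.57-fold higher with 71 of 75 late livers above the early median (adjusted p 3.71e-16). Ngef, a guanine nucleotide exchange factor, and Gstt2, a glutathione transferase, were 1.57-fold higher and 1.44-fold higher, each with 73 of 75 late livers above the early median. Slc2a5 (the fructose transporter GLUT5) and Serpina6 (the corticosteroid-binding globulin of plasma) had differences of 0.18 ± 0.0286 and 0.174 ± 0.0266. The thymidine kinase gene Tk1 was 1.45-fold higher, and its 2 probes gave 0.159 and 0.166. The others were Slc39a2 (a zinc carrier), Papss2 (which makes the sulfate donor PAPS), Gadd45a, Sik1 (a salt-inducible kinase), Cyp2g1, Tnfrsf19, Slc43a1 (an amino acid carrier) and Acot3 (an acyl-CoA thioesterase), with differences between 0.128 and 0.153.

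**Figure D3:**
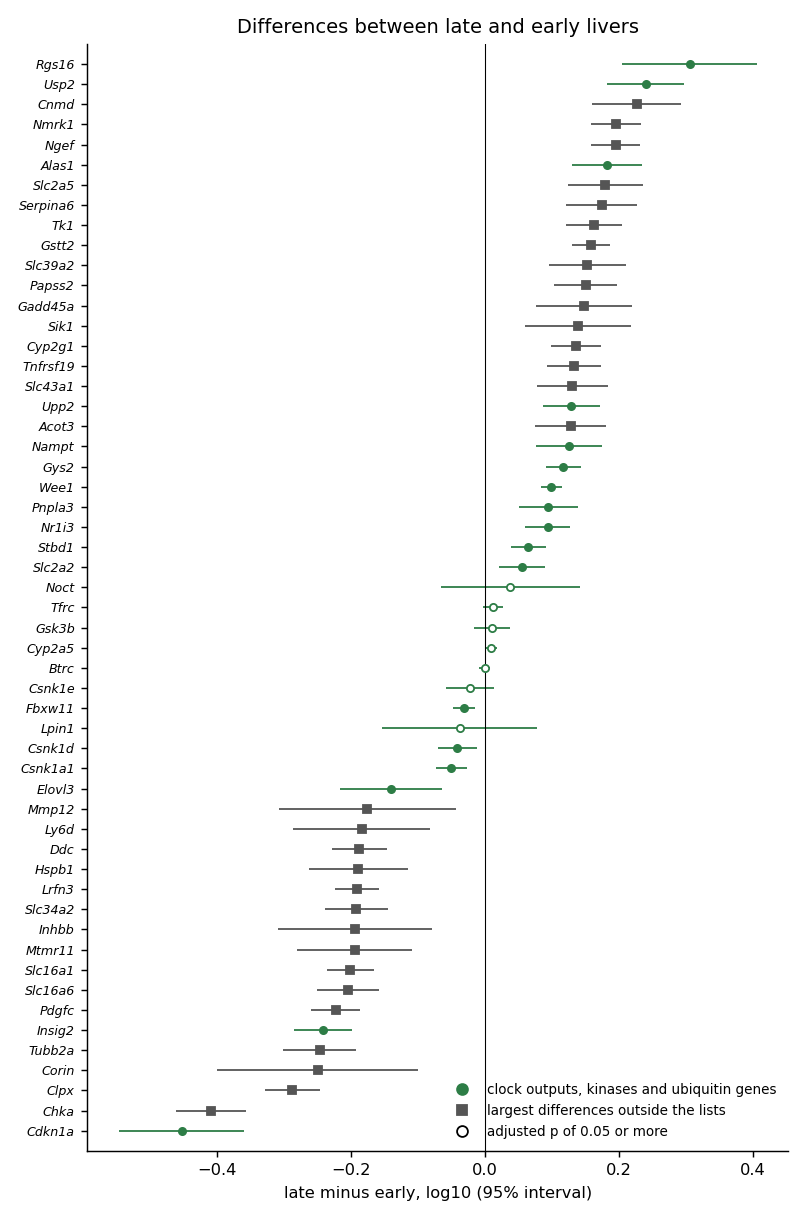
Late minus early difference in log10 (horizontal, with 95% intervals) for clock output, kinase and ubiquitin genes (circles) and for the 30 genes outside the lists with the largest differences (squares), 75 livers a group; open symbols had an adjusted p of 0.05 or more. Rgs16 at 0.306 and Cdkn1a at -0.453 mark the ends, and the squares were chosen for their size.

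Some of the differences were graded along the index, whose outer sixths consist of late and early mice themselves. Sixths 2 and 5 hold the rest of the early and late mice, and all sixths are cut from the index, so the grading is a description. Over sixths of the 302 mice, from the lowest index to the highest, the block-centred mean of Per2 was -0.154, -0.0754, -0.000881, 0.0325, 0.0530 and 0.145. Chka went the other way, with means of 0.264, 0.0933, 0.0336, -0.0460, -0.141 and -0.206. Each step of both genes kept its direction, and the SE of a mean was between 0.0134 and 0.0231. Cdkn1a had means of 0.199, 0.132, 0.103, 0.0191, -0.145 and -0.306, and its largest steps were those into the upper sixths. Cry1 stood highest in the lowest sixth, at 0.0773, and its other means lay between -0.0416 and 0.0134. Other called genes were not graded throughout. In sixths 4, 5 and 6 Rgs16 had means of 0.130, 0.105 and 0.131, and Hlf 0.0183, -0.0163 and 0.0331. Nr1d1 stayed between -0.0193 and 0.0373 in every sixth, with SEs up to 0.0285.

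**Figure D4:**
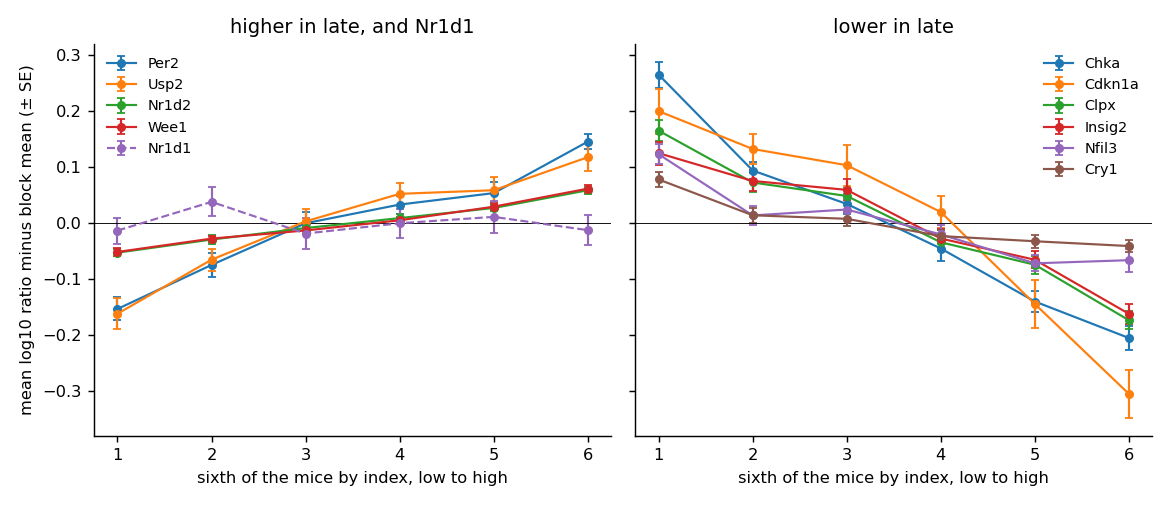
Mean block-centred log10 ratio (vertical, ± SE) in sixths of the 302 mice by index from low to high (50 or 51 mice each). Per2 and Usp2 climb and Chka and Cdkn1a descend across the sixths, and Nr1d1 (dashed) stays between -0.0193 and 0.0373.

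The 152 mice in neither group were described by the same index. It is read from the same 2 genes and arrays that set the groups, so agreement in these mice is a description. A slope on the index within them, scaled to the 4.65 units between the groups' means, had the direction of the group difference for 89.2% of the 5429 called features, against 70.2% of all features. It passed an adjusted p of 0.05 for 21 features (0.0968%), and all 21 were also called, with the same direction, between late and early livers. Of these, 14 are named genes: Chka, Clpx, Denn2b, Fat1, Gstt2, Hes6, Insig2, Lrfn3, Lrig2, Nedd4l, Nmrk1, Pdgfc, Rcor1 and Wee1. The scaled slopes were -0.462 for Chka, -0.292 for Clpx, -0.313 for Insig2 and 0.0989 for Wee1, beside group differences of -0.409, -0.287, -0.241 and 0.0993. The index of these mice spans only -1.239 to 1.344, so the scaling reaches past the range fitted. Naming genes called in these mice also favours large slopes. All 29 called clock-list genes had the same direction in these mice, 18 with an unadjusted p under 0.05 (10.3% of all features) and 2 (Insig2 and Wee1) after adjustment. The 29 were picked as called between the groups, while the 10.3% covers all features, called or not, so these shares are not alike. Per2 had a scaled slope of 0.233 with an adjusted p of 0.16.

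The genes most like the index over all 302 mice, by Pearson r of block-centred values and as a description only, were Chka (-0.769), Clpx (-0.708), Denn2b (-0.665), Nedd4l (-0.655) and Slc16a1 (-0.617) on the negative side. On the positive side they were Wee1 (0.641), Nr1d2 (0.63), Gstt2 (0.603), Per2 (0.603) and Ngef (0.594). All points share the arrays from which the index was read. Chka and Clpx had a larger r, in size, than any clock-list gene tested. Dbp and Arntl both lie on chromosome 7, where 22.6% of 900 named genes were called, against 25.8% of 9913 on other chromosomes.

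Of 7 measured genes of gluconeogenesis and fasting 3 were lower and 0 higher (42.9% called), beside 25.0% called, 15.2% higher and 9.81% lower over all features. Their median difference was -0.0341. Igfbp1, a binding protein of insulin-like growth factors that rises in fasting, had a lowest, median and highest log10 ratio of -1.05, -0.267 and 0.835 in late livers, against -0.872, -0.069 and 0.74 in early livers, a difference of -0.169 ± 0.0604 (adjusted p 0.0288). Igfbp1 turned to 0.0829 in the block of low numbers and low Eif2s3y alone. Irs2, an adaptor of the insulin receptor, was lower at -0.112 with 2 probes that disagreed, at -0.255 and 0.0301. Among 12 genes of fatty acid oxidation and PPAR alpha, 2 were higher and 3 lower (41.7% called). Ppara itself and Cpt1a, the gate of mitochondrial fatty acid entry, were 1.16-fold higher and 1.13-fold higher. Pdk4, which holds back pyruvate oxidation, ran from -0.851 to 0.603 with a median of -0.255 in late livers, and from -0.584 to 0.676 with a median of 0.0142 in early livers, and was 1.59-fold lower (adjusted p 0.000559). Fgf21, a fasting hormone of liver, was 1.23-fold lower (adjusted p 0.000382).

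In the fatty acid synthesis list 5 of 14 genes were higher and 0 lower (35.7% called, beside 25.0% of all features), and its median difference was 0.00558. Thrsp (Spot 14, a lipogenic protein) ran from -0.804 to 0.507 with a median of -0.121 in late livers, and from -0.914 to 0.369 with a median of -0.215 in early livers, and was 1.5-fold higher (adjusted p 0.00349). Srebf1, the regulator of lipogenic genes, was 1.28-fold higher (adjusted p 0.00225), with -0.0997 in the block of high numbers and low Eif2s3y alone. In the cholesterol list 4 of 13 were higher and 1 lower (38.5% called). Fdft1 (squalene synthase) and Insig1 were 1.21-fold higher and 1.22-fold higher, and Srebf2, the regulator of sterol genes, was lower at -0.0342. Thrsp had the opposite direction when mice were ranked by Dbp alone (-0.0181) and in the block of high numbers and high Eif2s3y alone (-0.0350), and Srebf2 in the block of low numbers and low Eif2s3y (0.0185).

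Of the bile acid list and of the drug metabolism list 33.3% of genes were called, beside 25.0% of all features. Cyp8b1, the enzyme that sets the share of cholic acid, had a lowest, median and highest log10 ratio of -0.556, -0.13 and 0.268 in late livers, against -0.383, 0.0388 and 0.371 in early livers. It was 1.35-fold lower (adjusted p 1.99e-06), with 64 of 75 late livers below the early median. Nr0b2 (SHP, a repressor in bile acid feedback) was also lower, at -0.0729, and Slc27a5 (a bile acid-CoA ligase) and Nr1h4 (the bile acid receptor FXR) were higher, at 0.0506 and 0.044. The list of 12 had 2 higher and 2 lower members and a median of 0.0424. Of 12 drug metabolism genes 4 were higher and 0 lower. Cyp1a2, a cytochrome P450 that clears caffeine, was 1.43-fold higher (adjusted p 0.000946), and Cyp2c54 1.32-fold higher (adjusted p 0.0239).

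Few markers of the cell types of liver were called. The limma fit called 0 of 14 macrophage, 7 hepatocyte, 8 lymphocyte, 3 bile duct, 6 red cell and 4 exocrine pancreas markers, while 2, 2, 1, 1, 0 and 0 of them had an unadjusted p under 0.05. The mean of the macrophage markers ranged from -0.467 to 0.304 in late and from -0.366 to 0.308 in early livers. For hepatocyte markers the mean ranged from -0.118 to 0.0764 in late and from -0.114 to 0.108 in early livers. Called were 1 of 8 stellate cell genes (Col1a2, -0.0426) and 2 of 8 endothelial genes (Stab2, 0.0316, and Lyve1, -0.0679). So were 1 of 6 neutrophil genes (Ltf, 0.0207) and 1 of 4 fat cell genes (Lep, 0.0366). Their shares of 12.5%, 25%, 16.7% and 25% called lie at or below the 25.0% of all features. Neither of the 2 probes of Col1a2 was called alone, and only 1 of the 2 probes of Stab2 was. The part of these cell types in the differences was not tested.

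The index ran in stretches along the mouse numbers. The numbers come from the labels, and the rule used them only at 212. Among 217 pairs of mice with consecutive numbers in 1 block (292 mice) the index of one mouse tracked that of the other, with a Pearson r of 0.448 and a Spearman rho of 0.431. The index is made of the values that chose the groups, so these correlations are a description. Without the 2 mice farthest from the median index r was 0.437. Within blocks r was 0.474 and 0.570 for low numbers with low and high Eif2s3y, and 0.118 and 0.300 for high numbers with low and high Eif2s3y. For numbers 2, 3, 4, 5 and 6 apart r was 0.275, 0.175, 0.187, 0.147 and 0.0730. Of the 217 pairs 24 were both late, 20 both early and 13 held 1 of each. What a number stands for is not given in the labels, so order of birth, killing or handling cannot be told apart.

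**Figure D5:**
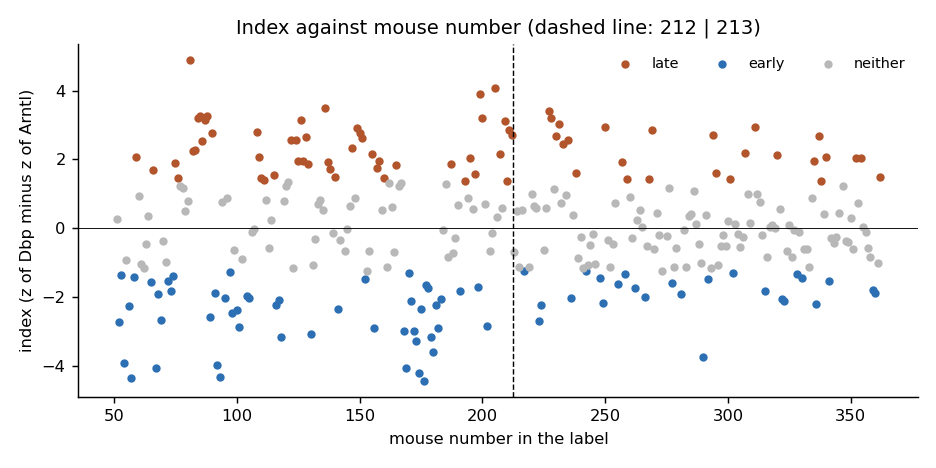
Index of each of the 302 mice (vertical, in SD units) against the mouse number in its label (horizontal), coloured by group, with a dashed line between 212 and 213. Late and early mice form short runs, and the spread is wider below the line (SD 2.13) than above it (SD 1.38).

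The size of the late minus early difference was compared between the blocks as an interaction. The groups were cut at the same index in all mice, while its SD was 2.13 in the lower and 1.38 in the higher numbers. Late and early mice may therefore lie unlike distances apart on the index in the 2 number ranges. Between the low and the high Eif2s3y mice limma called 0 features (0.00%) at an adjusted p of 0.05, while 1869 (8.61%) had an unadjusted p under 0.05. Between the lower and the higher numbers 20 features (0.0921%) were called, 13 of them named genes, and 2618 had an unadjusted p under 0.05. None of the 13 belongs to the clock lists, but these hold only 39 of the 10813 named genes tested, so little can be read from this. Sgk1, a kinase induced by glucocorticoids, had a late minus early difference of -0.240 in the higher numbers and 0.0399 in the lower, an interaction of -0.280 ± 0.0584 (adjusted p 0.0160). Inhba, the activin beta A subunit, had 0.162 in the higher and -0.0848 in the lower numbers, an interaction of 0.247 ± 0.0558 (adjusted p 0.0307). With each array centred and scaled 0 features were called in this interaction, at estimates of -0.248 for Sgk1 and 0.234 for Inhba (adjusted p 0.0771 for both).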

How the data were processed

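Each of 302 arrays compared liver RNA of 1 mouse (Cy3) with a common pool (Cy5), from RNA cleaned on spin columns with DNAse and amplified by an aminoallyl method, per the labels' protocols. The authors deposited 1 table of log ratios, read here as log10 of mouse over pool, for 23562 probes. The sources used here do not state scanning, background correction, normalization, log base or direction. Deposited values end at -2 and 2, with 546 and 472 values at the upper and lower end, and 0.0831% are missing.

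The array annotation gave 1 symbol for 13655 probes, several for 48 and none for 9859. Of those with 1 symbol 12652 matched a current gene through the GRCm38.p6 gene table and 1003 did not. Probes of a gene were averaged, probes without a name were kept single, and features with values in under 90% of mice were left out. The groups, blocks and index follow the rule given in the opening. Late minus early was fitted with limma 3.58.1 in R 4.3.3 (lmFit, eBayes) with the block as a term, and p-values were adjusted by Benjamini-Hochberg over 21705 features, with calls at 0.05. Differences are on the log10 scale with their SE, and folds are 10 raised to them. The code of the main fit was tested on simulated data, made by reshuffling the mice within blocks and adding known shifts to some features. The number of arrays limits the precision.

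Named were all measured clock-list genes, up to 2 called members in each direction of the 24 other lists, the 15 largest called differences in each direction outside the lists with 1 direction in all 4 blocks, and the 5 genes most like the index on each side. Genes called in the mice of neither group and in the interaction with mouse number were named after their values were seen. The members and lists were chosen with earlier results of these data known. Other settings are given in the closing section. Python 3.11.15 with numpy 2.4.6, pandas 2.3.3 and scipy 1.17.1 was used for tables.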

Additional observations from a re-analysis of the deposited data

Results flagged for a closer look

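For 13 named genes the late minus early difference itself differed between mice numbered 213 to 362 and mice numbered 51 to 212, by limma's interaction test at an adjusted p under 0.05 (0.0160 to 0.0475). The interaction, higher numbers minus lower numbers in log10, was negative for Sgk1 (-0.280), Tob1 (-0.205), Tmem189 (-0.171), Wdr5 (-0.114), Yaf2 (-0.106), Ube2e2 (-0.0947) and Mknk2 (-0.0808). It was positive for Inhba (0.247), Rbmxl1 (0.0904), Pinx1 (0.0720), Phlda2 (0.0690), Capn12 (0.0667) and Ruvbl1 (0.0438). In Tob1, an antiproliferative gene, the late minus early difference was -0.184 in the higher and 0.0212 in the lower numbers. Pinx1, a telomerase inhibitor, had 0.0383 in the higher and -0.0337 in the lower numbers. The other 7 features called in this interaction were unnamed probes. The count was 8 with 50 mice a group, 10 with 100 and 0 with each array centred and scaled, where the interaction was -0.248 for Sgk1 and 0.234 for Inhba.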

How the results depend on the processing

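The 5429 calls between late and early livers became 21 for the slope over the mice in neither group and 3308 with mice ranked by Arntl alone. Within single blocks, with fewer mice, they became 404 (low numbers, low Eif2s3y), 1000 (low, high), 547 (high, low) and 249 (high, high), and under the other settings they lay between 3882 and 8123. The 29 clock-list calls became 2 for the slope over the mice in neither group and 12, 5 and 6 in the blocks of low numbers with low Eif2s3y and of high numbers with low and high Eif2s3y, and were 22 to 30 otherwise. Of all calls 60.8% were higher in late livers, against 28.6% for the slope in the mice of neither group, 49.9% with Arntl alone, 43.3% and 48.6% in the low-number blocks with low and high Eif2s3y, 69.3% and 28.5% in the high-number blocks with low and high Eif2s3y, and 53.1% with scaled arrays. Interaction calls were 1 in place of 0 for Eif2s3y with 50 mice a group, and 8, 10 and 0 in place of 20 for mouse number with 50 mice, 100 mice and scaled arrays. Of the 98 called genes named by the rule, 85 stayed called with the same direction with no block in the index or the fit, 88 with scaled arrays, 95 without the widely spread arrays, 82 with Dbp alone, 72 with Arntl alone and 10 for the slope in the mice of neither group.

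No gene below except Nr1d1 was called by limma with its direction turned (adjusted p 0.483 to 0.994). Such turns cannot be told from no difference. Directions turned as follows, and the cause was not tested. In the block of low numbers and low Eif2s3y they were 0.000914 for Csnk1d, 0.0215 for Dusp1, 0.0829 for Igfbp1, 0.0113 for Irs2 and 0.0185 for Srebf2. With low numbers and high Eif2s3y they were -0.000457 for Hspe1 and -0.0639 for Ier3. With high numbers and low Eif2s3y they were -0.0808 for Bhlhe40, -0.0297 for Hlf, -0.00566 for Nr1i3, 0.0199 for Dnajb1, 0.165 for Lcn2, -0.0997 for Srebf1, -0.00700 for Insig1, -0.00617 for Cyp1a2 and 0.00193 for Lbp. With high numbers and high Eif2s3y they were 0.0116 for Npas2, -0.0192 for Hlf, -0.0320 for Slc2a2, 0.0429 for Dnajb1 and -0.0350 for Thrsp. Elsewhere they were 0.0613 for Elovl3 with no block in the index or the fit (which changes the mice in the groups), 0.0157 for Dusp1 in the mice of neither group, and 0.1003 for Nr1d1, -0.0181 for Thrsp and -0.00228 for Ier3 with Dbp alone. Mmp12 had 0.0112 with Arntl alone. Nr1d1, whose difference of -0.0183 was not called, also changed sign uncalled, at 0.0281 and 0.0449 in the blocks of low numbers with low Eif2s3y and of high numbers with high Eif2s3y, 0.0345 with no block, 0.00217 with 50 mice a group and 0.00170 for the slope over all mice.

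The neighbour correlation of the index, 0.448, was 0.391 with Dbp alone, 0.501 with Arntl alone and 0.337 with gaps in the numbers ignored. Unstated upstream normalization, the missing time of collection and the choice of groups by 2 measured genes limit every value. No paired analysis was possible because each mouse is its own sample and no number is shared between groups.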

Other observations

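Counts for gene groups outside the clock and fuel metabolism are given beside the 25.0% of all features called, 15.2% higher and 9.81% lower in late livers. All 5 measured subunits of oxidative phosphorylation, of 12 listed, were higher in late livers, with a list median of 0.0355. Cox7b and Cox5b, subunits of cytochrome c oxidase, were 1.17-fold higher (adjusted p 0.000609) and 1.08-fold higher (adjusted p 0.00519), with 61 and 59 of 75 late livers above the early median. In the cell cycle list 3 of 14 genes were higher and 3 lower (42.9% called). Ccne1 (cyclin E1, of the entry into DNA synthesis) and Bub1 were higher by 0.043 and 0.021, and Ccna2 and Ccnb2 (cyclins of later phases) had differences of -0.0818 and -0.0794.

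The other lists had shares called of 0 to 33.3%, at or near the share over all features or below it. Of 9 heat-induced chaperones 1 was higher and 2 lower, and of 3 cold-induced RNA-binding genes 0 were called by limma, with 0 at an unadjusted p under 0.05. Hspa1a, the inducible HSP70, had probes at -0.189 and -0.000496, and Dnajb1 a difference of -0.0595 ± 0.0235 (adjusted p 0.0491). Of 8 glucocorticoid-responsive genes 2 were lower, Dusp1 (-0.144) and Lcn2 (-0.103), of 11 acute phase genes 2 were lower, Lbp (-0.0793) and again Lcn2, and of 12 ER stress genes 2 were lower, Dnajb9 (-0.0753) and Ddit3 (-0.0594). Of 12 immediate early genes 1 was called, Ier3, at 0.0901.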
